A study of Homo sapiens with 12 samples.

Results

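The 10 genes described here, of 38478 in the deposited matrix, encode transcription factors that set or oppose the plasma cell state: PRDM1, XBP1, PAX5, BCL6, BACH2, SPIB, POU2AF1, POU2F2, MEF2C and EBF1. They were taken by name, and all 10 were found. Their RNA levels were measured in OPM-1, an established human multiple myeloma line and so a malignant plasma cell model of a single line, after 48 h with both agents (LEN+RUNXi), with a small-molecule inhibitor of RUNX proteins alone (RUNXi in the sample titles, at 1 μM), with lenalidomide alone (LEN, at 0.1 μM) or with the vehicle DMSO. Each of the 4 conditions had 3 replicates, which the study's methods call biological, and every sample received vehicle or drug. LEN directs the ubiquitin ligase receptor CRBN to the B-lineage factors IKZF1 and IKZF3, and RUNXi keeps RUNX proteins from their partner CBFβ. The comparisons address whether either drug, or both, shifted the plasma cell program.

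B cell identity and plasma cell identity are held by factors that repress each other. PAX5 and EBF1 switch on the B cell genes, while BCL6 and BACH2 keep an activated B cell from becoming a plasma cell by repressing PRDM1. PRDM1 encodes Blimp-1, which shuts off the B cell genes, and XBP1 then builds the secretory apparatus of an antibody-producing cell. SPIB, MEF2C, POU2F2 (Oct-2) and POU2AF1 (the octamer coactivator OBF-1) act on B cell and immunoglobulin gene expression.

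Levels are RPKM, reads per kilobase of gene length scaled to the reads counted on all genes. The reads on genes came to 21297486 to 31386210 per sample in DMSO, 19442512 to 30478783 in LEN, 22784874 to 29512562 in RUNXi and 16352548 to 20419807 in LEN+RUNXi. Differences were tested with limma on log2(RPKM + 0.1) over the 11241 genes whose mean reached 0.5 RPKM, with Benjamini-Hochberg adjustment over all of them. A gene was called, and is said below to have risen or fallen, at an adjusted p of at most 0.05 together with a log2 fold change of 0.32 or more in either direction. The interaction of the drugs was judged by adjusted p alone. Of the 10 members, 6 reached 0.5 RPKM and could be tested in this way. The other 4, PAX5, BCL6, POU2F2 and EBF1, are given by their reads.

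Of 8 plasma cell markers, 7 reached 0.5 RPKM: JCHAIN (2940 to 3630 RPKM over the 12 samples), IRF4, MZB1, TNFRSF17, SDC1, CD38 and SLAMF7. FCRL5 was the exception, at no more than 0.0578 RPKM. Of 8 mature B cell markers, CD79B alone reached 0.5 RPKM (5.27 to 6.94), and CD22 and FCER2 had 0 reads in all samples. None of the 6 T cell and 6 myeloid markers reached it in the mean over the samples, and CD3E was at 0.551 RPKM in its highest sample. The library RUNXi replicate 2 moved counts of calls over all genes: without it, 443 rather than 199 genes were called in RUNXi relative to DMSO, and 540 rather than 0 genes passed for the interaction of the drugs, by adjusted p alone. Without it, 764 rather than 408 genes were called in LEN+RUNXi relative to RUNXi, and 692 rather than 446 in RUNXi relative to LEN. Calls of members that depend on it are given both ways below. Shares and counts over all genes and over gene lists are given below with it included only.

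The members fell into 3 tiers in OPM-1. XBP1 (mean 523 RPKM over the 12 samples), POU2AF1 (136), MEF2C (65.9) and PRDM1 (33.2) were among the more abundant RNAs, with ranks of 82, 419, 955 and 2049 among the 38478 genes in DMSO. BACH2 (2.07) and SPIB (1.37) lay between, and PRDM1 was 16.1 times as abundant as BACH2 per length. POU2F2 (0.0587), BCL6 (0.0385) and EBF1 (0.0215) rested on 1 to 55 reads per sample, and PAX5 had none. Down to SPIB above POU2F2, every sample of the more abundant gene lay above every sample of the next. BCL6 overlapped with POU2F2 and with EBF1, so the order at the bottom is not set.

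**Figure D1:**
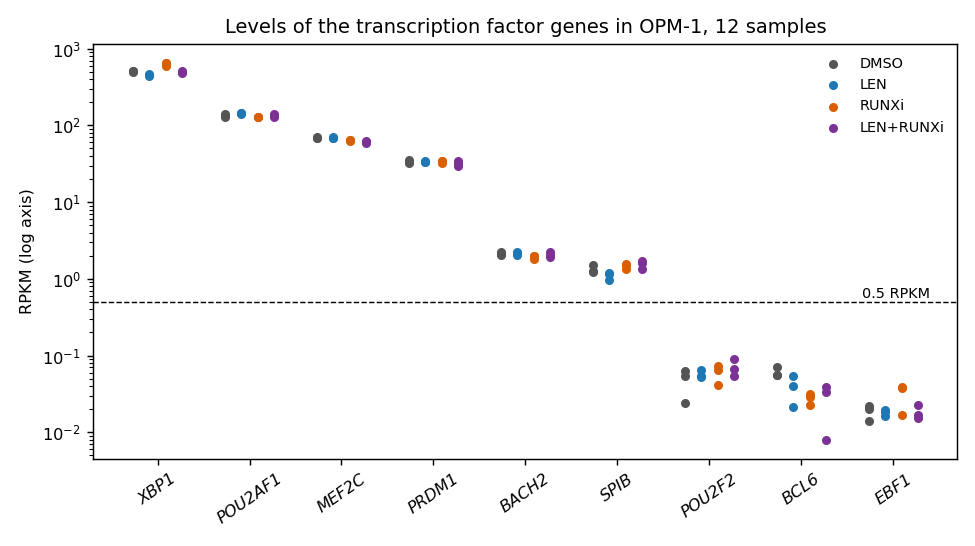
RPKM of 9 members on a log axis, with 1 point per sample, coloured by condition; PAX5, with 0 reads in all 12 samples, is not drawn. XBP1, POU2AF1, MEF2C and PRDM1 lie between 30.0 and 654 RPKM, BACH2 and SPIB between 0.954 and 2.26, and POU2F2, BCL6 and EBF1 below the dashed line at 0.5 RPKM.

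These levels depend on the gene lengths used by the authors. The deposited length of XBP1 is 1820 bases against 3028 bases of exons in GENCODE v44, that of MEF2C 7184 against 11755, and that of EBF1 47379 against 6316, so that the RPKM of EBF1 is low for its reads. The same length enters every condition, so it cancels from the ratio of 2 RPKM values. It still sets how far the added 0.1 shrinks the fold change of a low gene, and whether a gene reaches 0.5 RPKM.

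Relative to DMSO, no member was called in any treatment. The share of all tested genes called was 0.649% in LEN, 1.77% in RUNXi and 2.94% in LEN+RUNXi, and 0 of 6 members is near that background. At an unadjusted p below 0.05 limma had 3 members in LEN (XBP1, SPIB and POU2AF1), 2 in RUNXi (XBP1 and MEF2C) and 1 in LEN+RUNXi (MEF2C), where 1206, 2457 and 2659 of the 11241 genes did so, and limma's voom on the reads also called 0 in each. By adjusted p alone, without the fold change threshold, the counts were 0 members in LEN, 2 in RUNXi and 1 in LEN+RUNXi, against 1.13%, 4.55% and 8.64% of all genes. The 3 comparisons share the DMSO samples and are not independent of each other. RNA from whole cultures was measured, so a change in the cells present and a change in RNA per cell cannot be told apart.

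**Figure D2:**
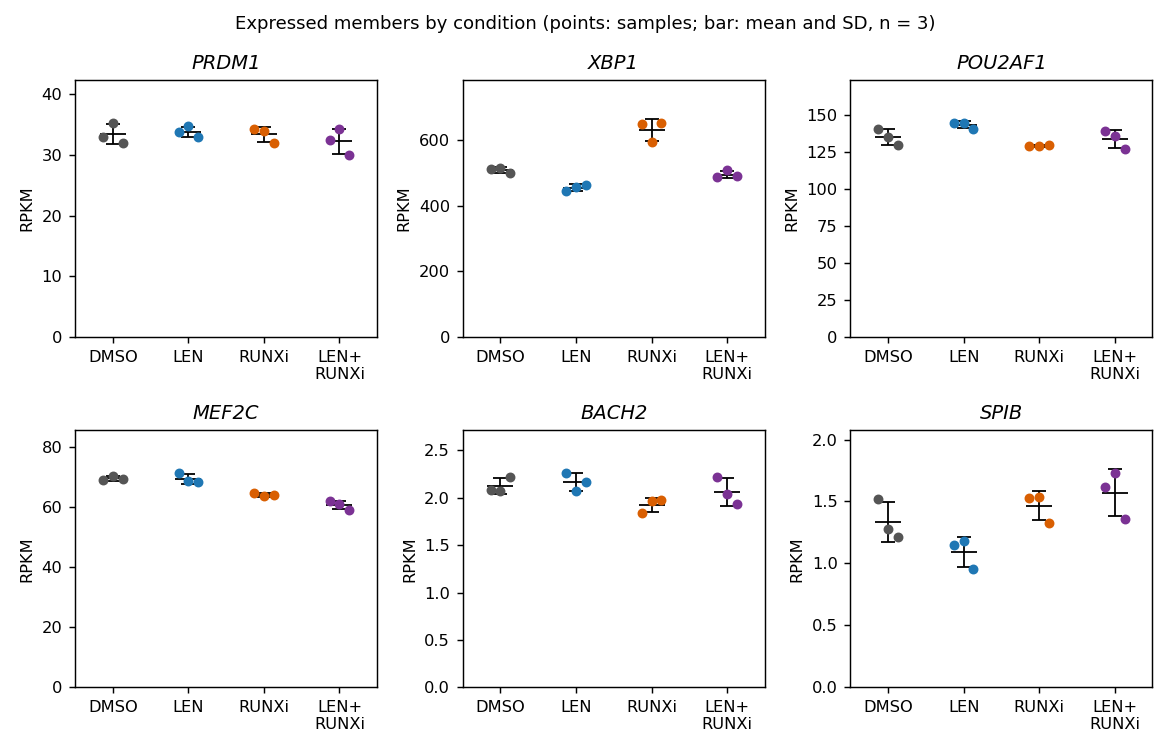
RPKM of the 6 tested members in each sample (points) by condition, with the mean and SD of 3 replicates (bars), on axes from 0. XBP1 is highest with RUNXi and near its DMSO level with both agents, MEF2C is lowest with both agents, and PRDM1, POU2AF1 and BACH2 stay close to DMSO.

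PRDM1 (ENSG00000057657, chromosome 6, 105993463 to 106109939, plus strand, GRCh38), the driver of plasma cell differentiation, was at 33.0, 35.3 and 32.0 RPKM in DMSO replicates 1, 2 and 3. It was at 33.7, 34.7 and 33.0 RPKM in LEN, 34.2, 34.0 and 32.0 in RUNXi, and 32.4, 34.2 and 30.0 in LEN+RUNXi. The 4 conditions overlapped throughout, on 4764 to 9080 reads per sample. The change from DMSO was 1.12% in LEN (95% interval -6.54% to 9.42%), -0.12% in RUNXi (-7.69% to 8.07%) and -3.68% in LEN+RUNXi (-11.0% to 4.22%), with adjusted p of 0.96, 0.99 and 0.58. These intervals, taken back from log2(RPKM + 0.1), leave room for changes of about the size of their ends and no larger ones at that level of confidence.

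XBP1 (ENSG00000100219, chromosome 22, 28794555 to 28800597, minus strand, GRCh38), the factor of the secretory apparatus and of the unfolded protein response, varied most among the abundant members. It was at 512, 516 and 500 RPKM in DMSO and at 444, 459 and 465 in LEN. RUNXi gave 649, 594 and 654 RPKM, and LEN+RUNXi gave 487, 508 and 490. All RUNXi samples lay above, and all LEN samples below, every sample of the other conditions, while LEN+RUNXi overlapped with DMSO. The values rest on 15128 to 31904 reads per sample and do not separate the spliced XBP1 transcript, which encodes the active factor, from the unspliced.

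With RUNXi, XBP1 was at 632 ± 33.3 RPKM against 509 ± 8.54 in DMSO (SD, n = 3 each), a difference of 24.1% (95% interval 16.9% to 31.7%, adjusted p = 0.001 from limma). Its log2 fold change of 0.31 (SE 0.039) fell short of the 0.32 needed for a call. It was past that threshold after quantile normalization (0.34), without DMSO replicate 2 (0.32) and without RUNXi replicate 2 (0.36). With LEN, XBP1 was at 456 ± 10.5 RPKM, a log2 fold change of -0.16 (SE 0.039), which did not pass (adjusted p = 0.097 from limma). With voom on the reads the same log2 fold change had an adjusted p of 0.018, also under the fold change threshold. In LEN+RUNXi it was at 495 ± 11.6 RPKM, -2.77% from DMSO (95% interval -8.41% to 3.21%, adjusted p = 0.58).

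Set against RUNXi alone, XBP1 fell in the combination, with a log2 fold change of -0.35 (SE 0.039, adjusted p = 0.00061 from limma), or -21.6% (95% interval -26.2% to -16.8%). It was the 1 member of 6 called there, where 3.63% of all genes were called and 0.471% were called lower. The log2 fold change ranged from -0.40 to -0.33 over the fits that lacked a single replicate. Relative to LEN, XBP1 in the combination was 8.57% higher (95% interval 2.28% to 15.3%), which did not pass (adjusted p = 0.11 from limma). RUNXi against LEN, a comparison added after the values were seen, gave a log2 fold change of 0.47 (SE 0.039, adjusted p = 2.6e-05 from limma).

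The interaction asks whether the effect of both agents departs from the sum of the single effects on the log2 scale. For XBP1 it was -0.19 (SE 0.056, adjusted p = 0.28 from limma), judged by adjusted p with no fold change threshold. Without RUNXi replicate 2, the lowest of the 3 XBP1 values with that agent, it was -0.24 (adjusted p = 0.019). No member passed, nor did any gene (0% of 11241), though 1 member (XBP1) and 1621 genes had an unadjusted p below 0.05, and voom called 0 members and 3 genes. XBP1 is therefore given here by its values in the 4 conditions, with no call of an interaction.

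**Figure D3:**
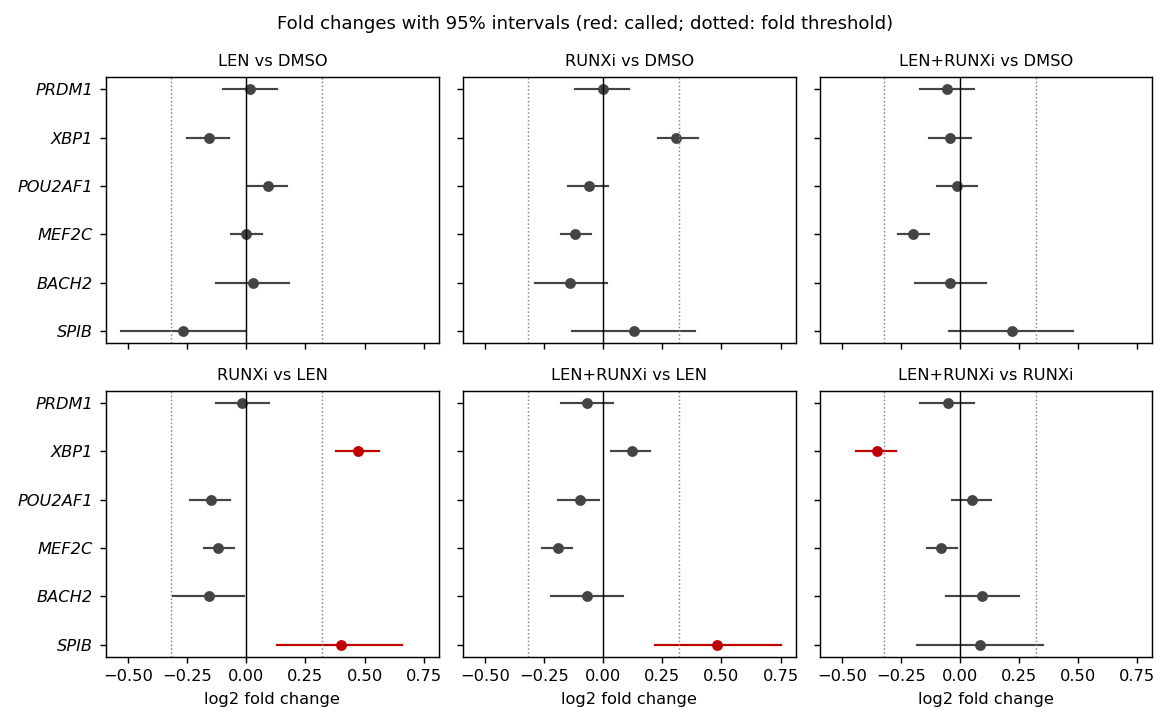
Log2 fold changes of the 6 tested members in 6 comparisons, with 95% intervals from limma; dotted lines mark the fold change threshold of 0.32 in either direction and red marks called genes. XBP1 is red in RUNXi against LEN and in LEN+RUNXi against RUNXi, and SPIB in RUNXi against LEN and in LEN+RUNXi against LEN.

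Because RUNXi acts on RUNX proteins, the promoters of the members were searched for the RUNX core TGTGGT on both strands. RefSeq (GRCh38.p14) gave 18 windows of 300 bases, from 250 before to 50 after a transcript start, for 9 of the 10 members. The core was in 2 of the 18 windows, one of BCL6 and one of POU2F2, against 13.1% of all 35116 windows of this kind. The ER stress element, CCAAT and CCACG with 9 bases between them and known from promoters of unfolded protein response genes, was in 1 of the 18, a window of XBP1, against 0.0769% of all. The 3 windows with a match are shown 5′ to 3′ in the direction of the gene, with the matched letters in capitals.
XBP1, chr22:28800520-28800819, minus strand: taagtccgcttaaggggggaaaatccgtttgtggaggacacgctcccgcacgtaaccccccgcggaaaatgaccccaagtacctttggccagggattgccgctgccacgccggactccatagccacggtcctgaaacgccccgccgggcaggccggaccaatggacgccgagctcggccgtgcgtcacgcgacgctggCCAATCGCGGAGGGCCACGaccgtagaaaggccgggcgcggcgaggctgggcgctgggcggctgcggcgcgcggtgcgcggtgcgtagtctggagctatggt
BCL6, chr3:187736452-187736751, minus strand: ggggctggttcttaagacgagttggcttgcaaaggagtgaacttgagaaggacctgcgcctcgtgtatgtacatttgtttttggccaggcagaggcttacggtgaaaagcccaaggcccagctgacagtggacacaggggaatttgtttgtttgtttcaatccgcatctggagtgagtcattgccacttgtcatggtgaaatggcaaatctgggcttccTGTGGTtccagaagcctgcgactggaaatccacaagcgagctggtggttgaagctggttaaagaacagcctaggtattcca
POU2F2, chr19:42132397-42132696, minus strand: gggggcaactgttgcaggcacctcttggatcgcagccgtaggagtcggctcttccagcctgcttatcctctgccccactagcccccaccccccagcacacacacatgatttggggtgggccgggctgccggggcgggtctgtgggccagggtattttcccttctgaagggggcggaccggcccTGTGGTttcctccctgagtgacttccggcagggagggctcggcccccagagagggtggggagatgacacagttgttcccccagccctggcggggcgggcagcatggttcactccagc
The ER stress element of XBP1 begins at position -52 from the start of the transcript, and the RUNX core lies at -31 in BCL6 and at -67 in POU2F2. The 2 motifs share no window among the members. No window of XBP1 or SPIB, the members with a call, held the core, which says only that these letters are not in these 300 bases.

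XBP1 acts through the genes of protein entry, folding and export, so 40 such genes were listed, of which 39 were tested. None was called in any comparison, where 0% to 3.97% of all genes were called. Their median log2 fold change was -0.02 in LEN, 0.02 in RUNXi and -0.04 in LEN+RUNXi, beside medians of 0, 0.01 and 0.02 over all tested genes. By adjusted p alone 0 of the 39 passed in LEN and 2 in RUNXi, which were HERPUD1 (0.20, adjusted p = 0.0081), of ER-associated degradation, and PDIA4 (-0.20, adjusted p = 0.03), a protein disulfide isomerase. In LEN+RUNXi, 2 were higher and 7 lower than in DMSO by adjusted p alone. Of all 11241 genes, 8.64% passed there, 634 higher and 337 lower. The lower genes of the list included SSR1 (-0.21, adjusted p = 0.0019 from limma) and SSR3 (-0.22, adjusted p = 0.0018), subunits of the translocon-associated complex. CANX (-0.18, adjusted p = 0.0034), the chaperone calnexin, was also among them. Between LEN+RUNXi and RUNXi, where XBP1 itself fell, 12 of the 39 were lower and 0 higher by adjusted p alone. Their median was -0.07 against 0.02 over all genes. Of all 11241 genes, 15% passed there, 657 lower and 1026 higher. Genes of this list are named for their values after these were seen.

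The gene whose log2 values followed those of XBP1 most closely over the 12 samples was PIK3AP1 (Pearson r = 0.988), an adaptor of phosphoinositide 3-kinase signalling, with condition means of 6.88, 5.8, 9.39 and 6.56 RPKM in DMSO, LEN, RUNXi and LEN+RUNXi. SLAIN1 (0.984) and DDX18 (0.97) came next. The samples share their libraries and conditions, and the genes were picked as the closest of 11241, so these values describe likeness only.

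POU2AF1 and POU2F2 differed widely in level. POU2AF1 (ENSG00000110777, chromosome 11, 111352255 to 111455630, minus strand) was at 141, 135 and 130 RPKM in DMSO and 145, 145 and 141 in LEN. It was at 129, 129 and 130 RPKM in RUNXi and 139, 136 and 127 in LEN+RUNXi. Every LEN sample lay above every DMSO sample by a small margin, while RUNXi and LEN+RUNXi overlapped with DMSO. The change from DMSO was 6.49% in LEN (95% interval 0.475% to 12.9%, adjusted p = 0.41 from limma), -4.2% in RUNXi (-9.61% to 1.54%, adjusted p = 0.37) and -0.87% in LEN+RUNXi (-6.47% to 5.06%, adjusted p = 0.89). RUNXi was below LEN by a log2 fold change of -0.15 (adjusted p = 0.024 from limma) and so was not called.

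POU2F2 (chromosome 19, 42086110 to 42196585, minus strand), a DNA-binding partner of POU2AF1 in B cells, had 19, 7 and 11 reads in DMSO and 12, 15 and 15 in LEN. RUNXi samples had 16, 18 and 9 reads and LEN+RUNXi samples 10, 14 and 13. Per 10000000 reads on genes this came to 4.46, 5.34, 5.7 and 6.58 in the 4 conditions, and all overlapped. At this depth no difference was detectable, and the widest, LEN+RUNXi against DMSO, had an adjusted p of 0.27 with voom. Among 22 relatives of the members (octamer, MEF2, BACH, EBF, PAX, SPI, PRDM and ER-stress factors), 12 were tested, the octamer factor gene POU2F1 among them. In LEN, RUNXi and LEN+RUNXi relative to DMSO 0 of the 12 were called, against 0.649%, 1.77% and 2.94% of all genes. Of these, MEF2D, a relative of MEF2C, had a log2 fold change of 0.24 in RUNXi (adjusted p = 0.028 from limma) and 0.20 in LEN+RUNXi (adjusted p = 0.033), the reverse of the sign in MEF2C.

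MEF2C (ENSG00000081189, chromosome 5, 88717117 to 88904257, minus strand), a MADS-box factor of B cell activation and survival, was lower wherever RUNXi was present. It was at 68.8, 70.4 and 69.2 RPKM in DMSO and 71.3, 68.5 and 68.4 in LEN. With RUNXi it was at 64.8, 63.5 and 64.0 RPKM and with LEN+RUNXi at 62.0, 60.9 and 59.1. Every sample with RUNXi, alone or with LEN, lay below every sample without it, and the combination lay below RUNXi alone.

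Relative to DMSO the MEF2C difference was -7.76% in RUNXi (95% interval -11.8% to -3.56%, adjusted p = 0.047 from limma) and -12.7% in LEN+RUNXi (-16.5% to -8.68%, adjusted p = 0.0023). LEN alone gave a log2 fold change of -0.00079 (95% interval -4.41% to 4.5%, adjusted p = 1). LEN+RUNXi was below LEN by a log2 fold change of -0.19 (SE 0.029, adjusted p = 0.0034 from limma), and its difference from RUNXi alone did not pass (-0.079, adjusted p = 0.089). All of these are under the fold change threshold, so MEF2C was not called. The adjusted p of RUNXi against DMSO lay between 0.033 and 0.15 over the alternatives and was above 0.05 without each of 5 of the 6 samples in turn, RUNXi replicate 2 being the exception. That of LEN+RUNXi against DMSO stayed at 0.016 or below. Exons of MEF2C overlap the opposite-strand genes MEF2C-AS1 and MEF2C-AS2, by 469 bases for the gene with the larger overlap. Whether the counting used strand is not given.

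SPIB (ENSG00000269404, chromosome 19, 50418938 to 50431314, plus strand), an ETS factor of B cells that opposes plasma cell differentiation, was the most variable of the tested members. It was at 1.52, 1.28 and 1.21 RPKM in DMSO and 1.15, 1.18 and 0.954 in LEN. It was at 1.53, 1.54 and 1.33 RPKM in RUNXi and 1.62, 1.73 and 1.36 in LEN+RUNXi. All LEN samples lay below all others, and the other 3 conditions overlapped. Counts were 79 to 168 reads per sample, and 839 exon bases are shared with a gene on the same strand, ENSG00000142539, so the level of SPIB is uncertain.

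Relative to DMSO, SPIB did not pass in LEN (log2 fold change -0.27, SE 0.12, adjusted p = 0.46 from limma), in RUNXi (0.13, adjusted p = 0.56) or in LEN+RUNXi (0.22, adjusted p = 0.3). Relative to LEN it rose in LEN+RUNXi, by a log2 fold change of 0.48 (SE 0.12, adjusted p = 0.045 from limma) or 39.6% (95% interval 16.3% to 67.6%). This is 1 of 6 members against 1.68% of all genes called, and 0.872% called higher. The call was lost without any of LEN replicates 1, 2 and 3 or LEN+RUNXi replicates 1 and 2 (adjusted p up to 0.16), and also under 5 of the other alternatives. In the comparison of RUNXi with LEN, added after the values were seen, the log2 fold change was 0.40 (SE 0.12) at an adjusted p of 0.05 from limma, just within the threshold, and it was lost without any 1 of the 6 samples (adjusted p 0.069 to 0.15). XBP1 and SPIB made 2 of 6 members called in that comparison, against 3.97% of all genes. The interaction for SPIB did not pass (0.35, adjusted p = 0.37).

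BACH2 (ENSG00000112182, chromosome 6, 89926528 to 90296843, minus strand), a repressor of PRDM1, was at 2.08, 2.07 and 2.22 RPKM in DMSO and 2.26, 2.07 and 2.16 in LEN. RUNXi gave 1.84, 1.96 and 1.97 RPKM and LEN+RUNXi gave 2.22, 2.04 and 1.93. The RUNXi samples lay below those of DMSO and LEN, and the combination overlapped with every other condition. The change from DMSO was 1.83% in LEN (95% interval -8.32% to 13.1%), -8.99% in RUNXi (-18.1% to 1.1%) and -2.79% in LEN+RUNXi (-12.5% to 7.98%), with adjusted p of 0.95, 0.28 and 0.78 from limma. No comparison of BACH2 passed. Over the 6 tested members, the groups did not overlap for 3 in LEN, 3 in RUNXi and 1 in LEN+RUNXi relative to DMSO, against 16.4%, 23.3% and 29.2% of all genes.

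The other factors of the B cell state were at or near the detection limit. PAX5 (chromosome 9, 36833269 to 37034268, minus strand), the factor of B cell commitment, had 0 reads in all 12 samples, 293260702 reads in total. A count of 0 allows up to 3 reads, which corresponds to 0.00089 RPKM over all samples together and to 0.0083 RPKM in the deepest and 0.016 in the shallowest library. These limits cover counting error only.

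BCL6 (chromosome 3, 187721377 to 187745725, minus strand), a transcriptional repressor active in germinal centre B cells, had 17, 13 and 9 reads in DMSO and 6, 5 and 12 in LEN. It had 5, 7 and 4 reads in RUNXi and 5, 1 and 6 in LEN+RUNXi. Per 10000000 reads on genes the sums of 39, 23, 16 and 12 reads came to 4.7, 2.92, 2.12 and 2.14. All samples of RUNXi and of LEN+RUNXi lay below all DMSO samples, and LEN did so too in RPKM (0.0404, 0.0215 and 0.0546 against 0.0709, 0.0563 and 0.0553). The LEN margin was narrow, and in reads LEN and DMSO overlapped. The share of genes without overlap was counted only among genes reaching 0.5 RPKM, so BCL6 has no such share beside it. With no filter on low values, the log2 fold change was -0.22 in LEN, -0.33 in RUNXi and -0.35 in LEN+RUNXi, with adjusted p of 0.76, 0.23 and 0.16 from limma. None passed, and on the scale of log2(RPKM + 0.1) these fold changes understate the ratio of so low a gene.

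EBF1 (chromosome 5, 158695920 to 159099916, minus strand), the early B cell factor, had 30, 31 and 14 reads in DMSO and 15, 28 and 25 in LEN. It had 18, 55 and 41 reads in RUNXi and 14, 13 and 22 in LEN+RUNXi. RUNXi replicates 2 and 3 stood above all other samples and replicate 1 did not. Per 10000000 reads on genes the 4 conditions were at 9.05, 8.64, 15.1 and 8.72. With voom on the reads the log2 fold change in RUNXi was 0.66 (SE 0.28, adjusted p = 0.15), and that of LEN+RUNXi against RUNXi was -0.69 (adjusted p = 0.12), so neither passed.

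**Figure D4:**
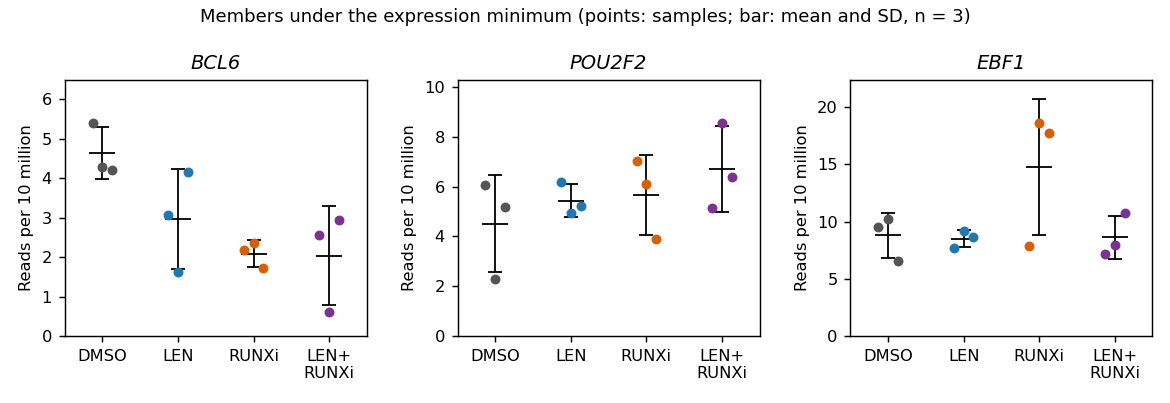
Reads per 10000000 reads on genes for BCL6, POU2F2 and EBF1 in each sample (points) by condition, with the mean and SD of 3 replicates (bars), on axes from 0. BCL6 has 4.7 in DMSO over its 3 samples together and 2.12 to 2.92 in the treatments, and 2 of 3 EBF1 samples with RUNXi stand above the rest; none of these differences passed a test.

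Genes that depend on PAX5 or mark the B cell state were mostly below 0.5 RPKM. Of 33 listed, 5 were tested. CIITA, which switches on MHC class II genes, was the 1 called gene, at 2.2 ± 0.0626 RPKM in DMSO, 2.95 ± 0.0515 in LEN, 3.19 ± 0.111 in RUNXi and 4.54 ± 0.265 in LEN+RUNXi (SD, n = 3 each). It rose by log2 fold changes of 0.40, 0.51 and 1.01 in the 3 treatments, with adjusted p of 0.0044, 0.00035 and 8e-07 from limma. With a pseudocount of 1 its log2 fold change in LEN was 0.30, under the threshold. CD79B, part of the B cell receptor, PLCG2, PTPN6 and SWAP70 were the other 4 tested and were not called.

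Of 32 genes of the plasma cell program, 29 were tested, and 0 were called in LEN, 2 higher in RUNXi and 2 higher in LEN+RUNXi, against 0.649%, 1.77% and 2.94% of all genes, and 0 lower in each. By adjusted p alone, 1 was higher and 2 lower in LEN, 5 higher and 0 lower in RUNXi, and 4 higher and 4 lower in LEN+RUNXi, against 1.13%, 4.55% and 8.64%. The median log2 fold changes were -0.04, 0.07 and 0.02, beside 0, 0.01 and 0.02 over all genes. SLAMF7, a surface receptor of plasma cells and an antibody target in myeloma, was at 17.9, 20.2 and 19.7 RPKM in DMSO, 18.2, 19.9 and 19.9 in LEN, 31.0, 29.6 and 32.8 in RUNXi and 20.4, 21.2 and 23.7 in LEN+RUNXi. It rose with RUNXi (log2 fold change 0.69, SE 0.06, adjusted p = 0.00011 from limma) and fell from there in the combination (-0.52, adjusted p = 0.0011). IL6R, the interleukin-6 receptor, rose in RUNXi from 17.8 ± 1.02 to 24.5 ± 1.0 RPKM (0.46, adjusted p = 0.00066 from limma) and in LEN+RUNXi to 23.5 ± 0.738 (0.40, adjusted p = 0.0011). GPRC5D, an orphan receptor of plasma cells, rose in LEN+RUNXi from 16.5 ± 0.936 to 20.7 ± 0.231 RPKM (0.33, adjusted p = 0.0011 from limma), and was under the fold change threshold with median-ratio (0.30) or quantile (0.31) scaling, with a pseudocount of 1 (0.31) and without DMSO replicate 3 (0.28).

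The summed level of the 8 plasma cell markers, most of it JCHAIN at 2940 to 3630 RPKM over the samples, was 3950 to 4200 RPKM in DMSO, 3890 to 4040 in LEN, 4290 to 4480 in RUNXi and 3750 to 3990 in LEN+RUNXi. It was highest with RUNXi, as XBP1 was, but its lowest range was with LEN+RUNXi, whereas XBP1 was lowest with LEN. The part of this in the XBP1 result was not tested. The 8 mature B cell markers summed to 5.67 to 7.54 RPKM over all samples.

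Among 30 further regulators of the B lineage, 25 were tested, and 1 was called in LEN, 1 in RUNXi and 2 in LEN+RUNXi, against 0.649%, 1.77% and 2.94% of all genes. ID2, an inhibitor of E proteins, rose from 21.4 ± 2.09 RPKM in DMSO to 38.2 ± 4.16 in LEN and 43.6 ± 4.73 in LEN+RUNXi (log2 fold changes 0.84 and 1.03, adjusted p = 0.0042 and 0.00027 from limma). In RUNXi alone ID2 was at 29.0 ± 3.79 RPKM, with every sample above those of DMSO, and was not called. RUNX1, a target of the inhibitor, fell in RUNXi from 7.99 ± 0.201 to 6.28 ± 0.403 RPKM (-0.35, SE 0.06, adjusted p = 0.0087 from limma). It was at -0.31, under the threshold, with a pseudocount of 1 and without RUNXi replicate 3. IRF8, an interferon regulatory factor of B cells, was at 1.12 ± 0.205 RPKM in DMSO, 1.4 ± 0.062 in LEN and 1.67 ± 0.332 in RUNXi. In LEN+RUNXi it was at 1.71 ± 0.107 RPKM, close to RUNXi alone, and was called there relative to DMSO (0.58, SE 0.15, adjusted p = 0.03 from limma), on 55 to 147 reads per sample. That call was lost without each of 5 of the 6 samples, all but DMSO replicate 2 (adjusted p 0.054 to 0.11), and also with no filter (0.082) and after quantile normalization (0.06).

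**Figure D5:**
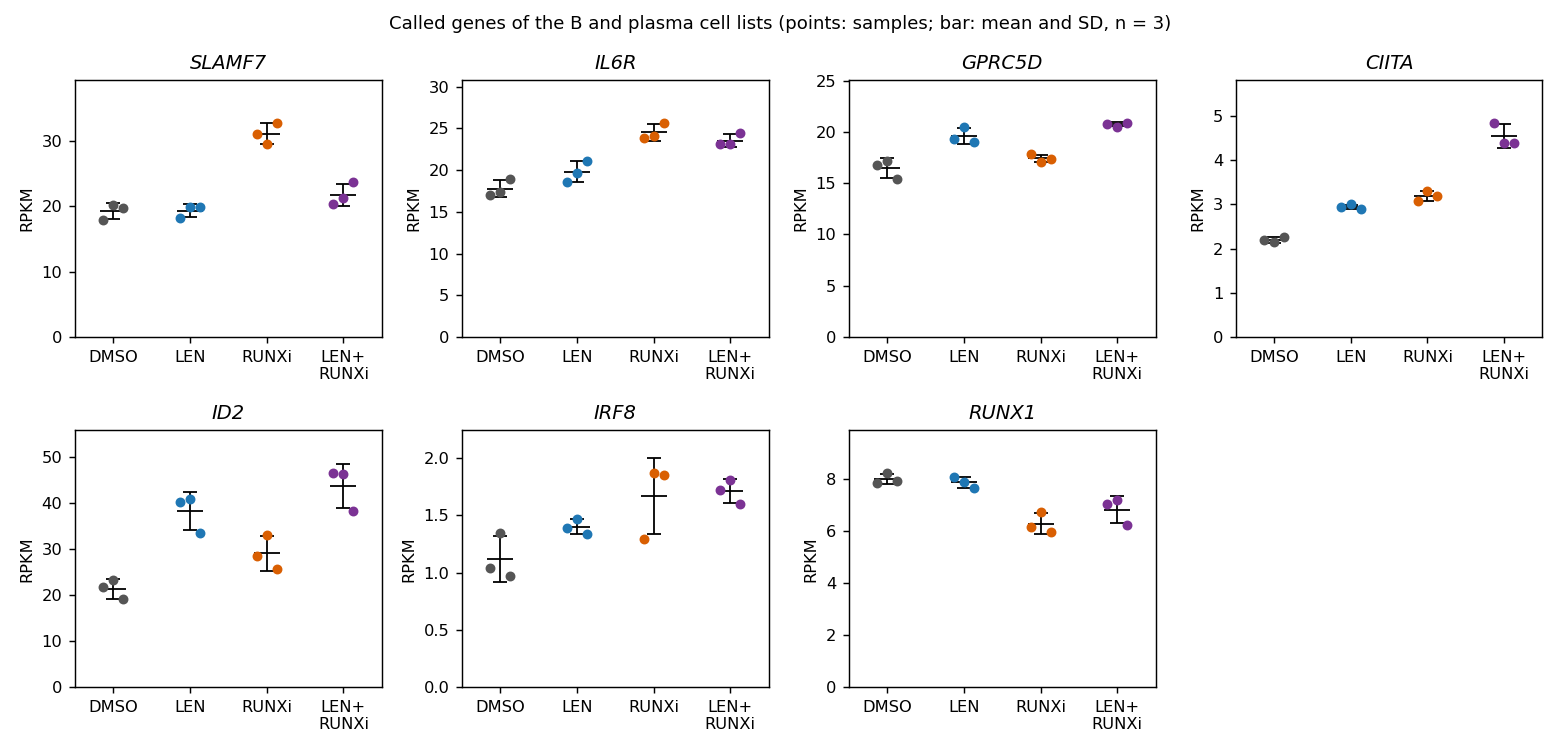
RPKM of the 7 list genes called in a treatment relative to DMSO, in each sample (points) by condition, with the mean and SD of 3 replicates (bars), on axes from 0. SLAMF7 is high with RUNXi alone, IL6R wherever RUNXi is present, GPRC5D wherever LEN is present, CIITA most with both agents, and RUNX1 is lowest with RUNXi. ID2 is highest wherever LEN is present, and with RUNXi alone it lies between DMSO and LEN.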

How the data were processed

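Poly(A) RNA of 12 OPM-1 samples (4 conditions, 3 replicates, grouped by the sample titles) was sequenced from a directional library kit. Per the file headers the authors counted reads with featureCounts and deposited RPKM values with the gene lengths used. The submitters' processing notes name GRCh38, FastQC, STAR, Cuffnorm and DESeq2. The annotation and the strand setting of the counting are not given in the sources used here. The design, fixed on the labels, allowed for FPKM or RPKM. Multiplying each RPKM by gene length gave whole reads within 0.02 of a read for 100% of values in every sample.

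The main test was limma 3.58.1 (R 4.3.3) with a variance trend on log2(RPKM + 0.1) of all 12 samples, with 1 mean per condition. Since the values are normalized, a model on reads (limma's voom, 12816 genes with a mean of at least 10 reads, 8 members) was an alternative, and it called 129, 323 and 473 genes in LEN, RUNXi and LEN+RUNXi relative to DMSO, against 73, 199 and 331. With no filter 24115 genes and 9 members entered. Intervals are 95% intervals of the fit. Rows named by a date number (28 of 38478) were kept, and 0 per-sample columns were left unmapped. Replicates differed by more than sampling noise (chi-square 1.88 to 9.64 per degree of freedom), so tests rest on replicates. Tested on simulated data for LEN against DMSO (11247 genes), the script called 94 of 100 genes changed by 1 on the log2 scale and 68 of 100 changed by 0.5, with 3 unchanged genes called. The simulation gave all genes a single preset dispersion, not estimated from these data, and no effect of replicate number. Changes under 0.5 were not simulated, so these rates do not give the power at such sizes.

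The members, gene lists and tests were chosen with earlier results of these data known. Named genes are the 10 members, the up to 4 called genes of each list with the largest change from DMSO, and the 3 genes most like each called member. List genes outside this rule, and the comparison of RUNXi with LEN, were chosen after their values were seen. In the main test, samples with equal replicate numbers were not treated as pairs. Of 12 samples, 10 were closest to one with their own number, so a replicate block was kept among the alternatives. Coordinates are from GENCODE v44. Promoters are from RefSeq, where POU2AF1 was not matched. Tables and figures were made with matplotlib 3.10.9, pandas 2.3.3 and numpy 2.4.6 under Python 3.11.15.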

Additional observations from a re-analysis of the deposited data

How the results depend on the processing

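Alternatives were no filter on low values, a minimum mean of 1 RPKM, a pseudocount of 1 or 0.01, median-ratio rescaling, quantile normalization, voom, the compared conditions alone, the replicate block, no fold change threshold, and leaving out each sample of the compared conditions. In RUNXi relative to DMSO, 0 members were called, 1 after quantile normalization, 2 with no fold change threshold, and 0 to 1 with a replicate left out. In LEN+RUNXi relative to DMSO the count was 0, and 1 with no fold change threshold. Relative to LEN, the 1 member called in LEN+RUNXi (SPIB) became 0 under a pseudocount of 1, no filter, median-ratio rescaling, quantile normalization and the compared conditions alone, 2 with no fold change threshold, and 0 to 1 with a replicate left out. For RUNXi relative to LEN the 2 members became 1 under a pseudocount of 1, no filter, median-ratio rescaling, the compared conditions alone and each left-out replicate (1 to 1), and 4 with no fold change threshold. The interaction, judged by adjusted p alone, had 0 members, and 0 to 1 with a replicate left out (XBP1 without RUNXi replicate 2). In LEN relative to DMSO 0 members were called under every alternative, and in LEN+RUNXi relative to RUNXi 1 was (XBP1). Quantile normalization turned 3 values near 0: MEF2C in LEN (0.012), PRDM1 in RUNXi (0.0015) and POU2AF1 in LEN+RUNXi (0.015). With a replicate left out, signs turned within -0.015 to 0.056 for PRDM1, -0.0043 to 0.058 for BACH2 and -0.02 to 0.0095 for MEF2C in LEN, -0.033 to 0.038 for PRDM1 in RUNXi, -0.092 to 0.0047 for BACH2 and -0.041 to 0.024 for POU2AF1 in LEN+RUNXi, and -0.036 to 0.013 for PRDM1 in RUNXi relative to LEN. Where a call was lost the cause was not tested, apart from the fewer samples or lower fold that an alternative itself sets.

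Samples with equal replicate numbers were weakly alike (mean r 0.052 over 18 pairs, 2 of them over 0.1, against -0.026 over 36 others), and 10 of 12 samples were closest to one of their own number. With the replicate block the members called were 0, 0 and 0 relative to DMSO, 1 in LEN+RUNXi relative to LEN (SPIB, adjusted p = 0.011), 1 relative to RUNXi (XBP1, adjusted p = 0.0018), 2 in RUNXi relative to LEN and 0 for the interaction, so it changed no call of a member. Depth limits BCL6, POU2F2, EBF1 and SPIB, on at most 168 reads per sample.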

Other observations

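RUNXi set against LEN gave calls in the B-lineage and plasma cell lists beyond those relative to DMSO. The genes below were chosen after their values were seen. Of the 25 B-lineage regulators tested, 0 were higher and 4 lower in RUNXi than in LEN. Of all 11241 tested genes, 3.97% were called there, 139 higher and 307 lower. IKZF3 (Aiolos), whose protein LEN sends to degradation, was at 25.8 ± 0.254 RPKM in LEN, 22.9 ± 0.466 in DMSO and 18.6 ± 1.45 in RUNXi (SD, n = 3 each), and RUNXi was below LEN by a log2 fold change of -0.47 (adjusted p = 0.00016 from limma). TCF4, the E protein E2-2, was at 5.93 ± 0.0521 RPKM in LEN, 5.06 ± 0.177 in DMSO and 4.22 ± 0.24 in RUNXi, a log2 fold change of -0.48 between the agents (adjusted p = 0.00014). ID2 and RUNX1 were the other 2, with log2 fold changes of -0.40 and -0.32.

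Of the 29 plasma cell program genes tested, 3 were higher and 1 lower in RUNXi than in LEN, against 139 and 307 of all 11241 genes. PDK1, a kinase of pyruvate metabolism, had means of 19.7 ± 0.394 RPKM in DMSO, 16.3 ± 0.113 in LEN, 21.2 ± 0.501 in RUNXi and 16.1 ± 0.452 in LEN+RUNXi (SD, n = 3 each). It fell from RUNXi to the combination by a log2 fold change of -0.39 (adjusted p = 0.0002 from limma) and was higher in RUNXi than in LEN by 0.37 (adjusted p = 3.9e-05). TRIB1 and SLAMF7 were the other 2 higher genes, with log2 fold changes of 0.48 and 0.68, and CAV1, at 0.709 to 1.41 RPKM in the condition means, was the lower one (-0.92, adjusted p = 0.0073). Between LEN+RUNXi and RUNXi, 1 gene of this list was higher and 2 were lower (SLAMF7 and PDK1), against 355 and 53 of all 11241 genes. The higher gene was TXNDC5, a protein disulfide isomerase, at 2.69 ± 0.196 against 1.37 ± 0.653 RPKM (log2 fold change 1.01, SE 0.26, adjusted p = 0.028 from limma). TXNDC5 was at 2.51 ± 0.636 RPKM in DMSO and 2.34 ± 0.438 in LEN, so the combination was near both and RUNXi was the low condition. Its spread was wide for its level, and fits without single replicates are not given for it. Exons shared with other genes were looked up for the members only, so the level of TXNDC5 is uncertain.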
